A study of Mus musculus with 24 samples.

Results

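Hepatocyte JNK knockout mice and control mice were compared after exposure to diethylnitrosamine (DEN), a liver carcinogen, by microarray profiling of whole liver. The comparison took the 6 livers labelled as DEN-treated, 3 of each genotype, out of the 24 livers in the series. The tested mice, JNKΔhepa, carried floxed Jnk1 and a Jnk2 deficiency (Jnk1LoxP/LoxP/Jnk2-/-), with Alb-Cre, a recombinase driven by the albumin promoter of hepatocytes, and a C57BL/6 background. The other mice were labelled only as controls, and no source used here gives their alleles at Jnk1, Jnk2 or the Cre locus. Both genotypes received DEN for 40 days, and the dose, age and sex were not given. The series also holds JNKΔhepa and control livers taken 28 days after bile duct ligation (3 of each), which are used here only where a difference between the experiments is tested. Livers are called by genotype and replicate number, as in JNK knockout liver 2. Whether the 3 mice of a group shared a litter or cage is not given, and p-values measure the spread between these 6 livers.

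The c-Jun N-terminal kinases (JNK) are stress-activated protein kinases at the end of a relay of kinases. They are switched on by upstream MAP2K and MAP3K enzymes, held on scaffolds, and switched off by dual-specificity phosphatases, and they phosphorylate c-Jun and its AP-1 partners. In hepatocytes JNK1 and JNK2, the products of Mapk8 and Mapk9, take part in responses to cytokines, lipids and toxic injury. DEN is activated by hepatocyte cytochrome P450 enzymes into a product that alkylates DNA, which engages p53, DNA repair, cell death and compensatory proliferation.

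Values are log2 expression as deposited, on which 1 unit is a 2-fold difference, and every difference below is the JNK knockout mean minus the control mean. The table gave 18820 genes with a single symbol, each read from 1 probe set, and levels of different genes are not compared with each other. Hepatocyte markers (Alb, Apoa1, Ttr, Cps1 and Hnf4a) averaged 12.26 to 12.53 in JNK knockout livers and 12.47 to 12.57 in control livers, as in hepatocyte-rich tissue. Exocrine pancreas markers averaged 3.2 to 3.38 in JNK knockout livers and 3.36 to 3.74 in control livers, close to the lower end of each array's values.

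Mapk8, the gene for JNK1, was read at 5.91, 5.98 and 5.76 in JNK knockout livers 1, 2 and 3, against 6.58, 6.63 and 6.36 in control livers 1, 2 and 3. All 3 JNK knockout livers lay below all 3 control livers. The difference was -0.64 (95% interval -0.95 to -0.34), with an unadjusted limma p of 0.00168 and a Benjamini-Hochberg adjusted p of 0.985 over all genes. Whole liver also holds cells that do not express an albumin-driven Cre, and their share of the Mapk8 signal was not tested. Fewer cells of a type and less RNA per cell cannot be told apart in bulk tissue.

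Mapk9, the gene for JNK2, was at 3.23, 2.92 and 3.05 in JNK knockout livers, against 2.91, 3.41 and 3.15 in control livers. The groups overlapped, with a difference of -0.09 (95% interval -0.48 to 0.30). The same probe set read 2.82 to 3.51 in all 18 livers of the series other than the 8-week livers, and 7.99 to 8.53 in the 6 livers taken at 8 weeks. Mapk9 thus did not set the control livers apart from the JNK knockout livers after DEN. It was at a similar low level in both groups, below every 8-week liver, and those livers are labelled NEMO or NEMO/JNK1 knockout. By transcript, the comparison therefore sets livers with lower Mapk8 against controls, with Mapk9 low on both sides. The labels give no Jnk2 allele for the controls, and whether the controls lack Jnk2 was not tested. Mapk10, which encodes the mainly neuronal JNK3, was at 2.74, 2.49 and 2.78 in JNK knockout livers, against 2.78, 2.97 and 2.91 in control livers. Ikbkg, the NF-kB regulator NEMO that other mice of the series lack in hepatocytes, averaged 6.98 ± 0.34 in JNK knockout livers and 7.14 ± 0.33 in control livers (SD, n = 3 each), a difference of -0.16 with an interval of -0.71 to 0.39.

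**Figure D1:**
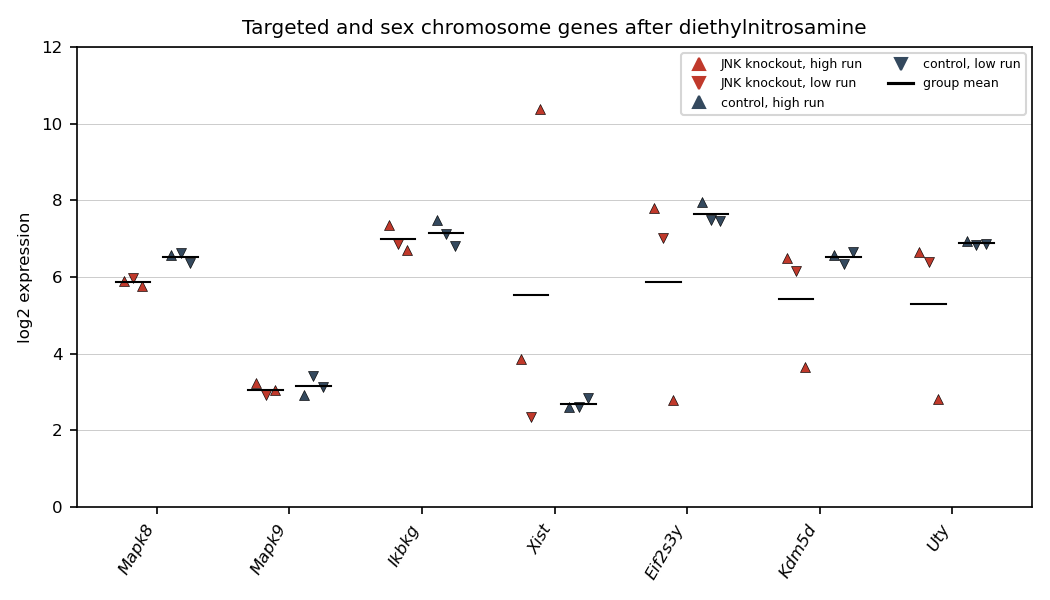
Log2 expression of the targeted genes and of sex chromosome genes in each of the 6 livers, with JNK knockout livers on the left of each pair, bars at group means and the triangle direction giving the run of animal numbers. Mapk8 separates the groups, Mapk9 does not, and 1 JNK knockout liver differs from the other 5 in Xist, Eif2s3y, Kdm5d and Uty.

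The livers of a group were not alike. Xist, the RNA of the inactive X chromosome, was at 3.87, 2.35 and 10.38 in JNK knockout livers 1, 2 and 3, against 2.62, 2.62 and 2.84 in control livers. The Y-linked genes ran the other way. Eif2s3y was at 7.80, 7.01 and 2.80 in JNK knockout livers, against 7.96, 7.49 and 7.46 in control livers. Kdm5d was at 6.49, 6.15 and 3.66 in JNK knockout livers, against 6.57, 6.34 and 6.65 in control livers, and Uty at 6.66, 6.39 and 2.81 in JNK knockout livers, against 6.93, 6.83 and 6.87 in control livers. JNK knockout liver 3 thus had the transcript pattern of a female, alone among the 6 livers, while the labels give no sex. Counts of genes and of several lists below are also given without this liver. Differences of single genes include it unless a run or a left-out liver is named. The part of sex in these differences was not tested.

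Sex-biased hepatocyte genes spread widely within both genotypes. Cyp4a12a, an androgen-dependent fatty acid hydroxylase, was at 11.10, 10.72 and 4.05 in JNK knockout livers, against 11.30, 9.24 and 6.60 in control livers. Slco1a1, a male-biased organic anion carrier, was at 10.06, 8.73 and 3.33 in JNK knockout livers, against 8.96, 6.46 and 4.73 in control livers. Sult3a1, a female-biased sulfotransferase, was at 2.51, 1.80 and 9.02 in JNK knockout livers, against 2.11, 4.10 and 5.36 in control livers. JNK knockout liver 3 was the extreme for all 3 genes, and control livers 2 and 3 lay between it and the rest. None of the 18 male-biased or 17 female-biased genes on the lists reached an unadjusted limma p under 0.05.

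The animal numbers in the labels fell into a low run (JNK knockout liver 2, control livers 2 and 3) and a high run (JNK knockout livers 1 and 3, control liver 1). The labels do not call these runs a litter, date or batch. All low-run livers lay above all high-run livers in 1665 genes (8.85%) and below them in 1965 genes (10.4%). By genotype, all JNK knockout livers lay above all control livers in 614 genes (3.26%) and below them in 1168 genes (6.21%). Among the genes that did not overlap and whose means differed by at least 1 unit, 168 were higher and 53 lower in the low run, whereas 45 were higher and 13 lower in JNK knockout livers. The runs therefore separated more genes than the genotypes did, in both directions. A comparison within 1 run sets a single liver of one genotype against 2 of the other, the single liver of the low run being JNK knockout liver 2 and that of the high run control liver 1, so within-run values describe those livers.

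JNK knockout liver 2 stood furthest from its group. It lay at least 1 unit above both other JNK knockout livers in 639 genes and at least 1 unit below them in 93 genes, together 3.89% of genes. JNK knockout livers 1 and 3 did so in 336 and 120 genes, and control livers 1, 2 and 3 in 250, 43 and 77 genes. Over all genes, JNK knockout liver 2 correlated with the other livers at 0.9627 to 0.9743 (Pearson, across genes of livers profiled on 1 platform). JNK knockout liver 1 and control liver 1, both of the high run, correlated at 0.9915.

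**Figure D2:**
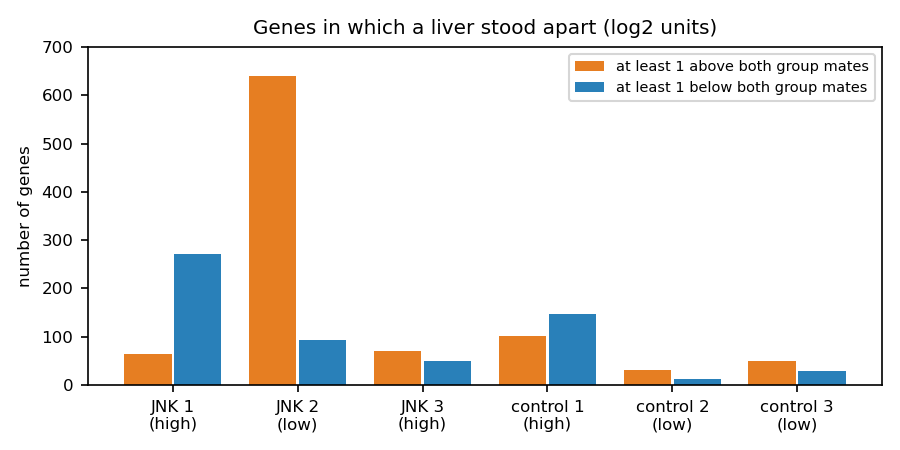
Number of genes in which each liver lay at least 1 log2 unit above (orange) or below (blue) both other livers of its own genotype, with the run of animal numbers in brackets. JNK knockout liver 2 has the tallest bar, with 639 genes above, and control livers 2 and 3 have the fewest genes apart.

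No gene differed between JNK knockout and control livers after DEN once all 18820 tests were taken into account. With limma and Benjamini-Hochberg adjustment, 0 genes (0%) were higher and 0 genes (0%) lower at an adjusted p under 0.05, and the smallest adjusted p was 0.883, for Phf11a. At an unadjusted p under 0.05, 272 genes (1.45%) were higher and 509 genes (2.7%) lower. The median difference over all genes was -0.02. Leaving out JNK knockout liver 1 brought 2 genes past the adjusted threshold, Gabrp and Muc1, both at an adjusted p of 0.012. Without JNK knockout liver 2 or without JNK knockout liver 3 the count stayed at 0 in both directions. The genes below are therefore described by their values in each liver, and none is called changed.

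Among genes with an unadjusted p under 0.01, groups that did not overlap and a mean of at least 5 in the higher group, 43 were higher and 28 lower in JNK knockout livers. The 10 with the largest higher means held epithelial, innate immune and immunoglobulin genes. Gabrp, a subunit of the GABA-A receptor found in epithelia, was at 4.74, 7.08 and 6.77 in JNK knockout livers, against 3.51, 2.99 and 3.20 in control livers. Its difference of 2.96 ± 0.58 (SE; unadjusted limma p 0.00141) was the largest, and was 3.98 within the low run and 2.25 within the high run. Muc1, a membrane mucin of ductal epithelium, was at 5.57, 7.44 and 7.54 in JNK knockout livers, against 4.51, 4.79 and 4.52 in control livers. Mmp7, an epithelial metalloproteinase known as matrilysin, was at 5.14, 7.01 and 7.30 in JNK knockout livers, against 3.80, 4.39 and 4.58 in control livers. JNK knockout liver 1 was the lowest of its group for Gabrp, Muc1 and Mmp7 and still lay above every control liver.

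Hamp2, the second mouse hepcidin gene, was at 7.38, 8.13 and 9.65 in JNK knockout livers, against 6.19, 5.94 and 5.58 in control livers. Its difference was 2.49 ± 0.53 (SE; unadjusted limma p 0.00238), 2.38 within the low run and 2.33 within the high run. The neighbouring Hamp, which encodes the iron hormone hepcidin, was at 12.38, 12.08 and 12.11 in JNK knockout livers, against 12.20, 11.69 and 10.78 in control livers, and its groups overlapped. For Hamp2 after DEN, JNK knockout liver 3 was the highest of the 6, and JNK knockout livers 1 and 2 also lay above every control liver. After bile duct ligation Hamp2 was also higher in JNK knockout livers, by 2.68 (adjusted limma p 0.0029). The interaction between the experiments for Hamp2 was -0.20 (adjusted limma p 0.97).

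Tff2, a trefoil peptide secreted with mucus, was at 4.71, 6.18 and 5.99 in JNK knockout livers, against 4.16, 4.25 and 3.89 in control livers. Igkv8-30, an immunoglobulin kappa variable segment with many near-identical copies, was at 5.02, 6.62 and 6.04 in JNK knockout livers, against 4.41, 3.85 and 4.17 in control livers. Slfn4, a Schlafen gene of myeloid cells, was at 4.90, 4.72 and 5.75 in JNK knockout livers, against 3.37, 3.33 and 4.0 in control livers. JNK knockout liver 2, the highest of its group for Tff2 and Igkv8-30, was the lowest for Slfn4. Ms4a4c, a member of the membrane-spanning 4A family, averaged 6.52 ± 0.63 in JNK knockout livers and 5.26 ± 0.46 in control livers (SD, n = 3 each). Phf11a and Oas3 complete the 10 and are described with the interferon genes.

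Among the 28 lower genes of this selection, the 10 with the largest lower means differed by less than the top of the higher group. The selection leaves out some genes with larger differences, such as Plin4 and Cpe, which are described below. Chrm3, the muscarinic M3 acetylcholine receptor, was at 5.28, 5.27 and 4.38 in JNK knockout livers, against 5.89, 6.15 and 6.32 in control livers. Its difference was -1.14 ± 0.27 (SE; unadjusted limma p 0.00367). For Chrm3, JNK knockout liver 3 was the lowest of the 6, and JNK knockout livers 1 and 2 also lay below every control liver. Robo1, a receptor for Slit guidance proteins, was at 6.24, 6.18 and 6.99 in JNK knockout livers, against 7.13, 7.63 and 8.07 in control livers. Fam25c was at 5.29, 5.39 and 5.50 in JNK knockout livers, against 5.92, 6.37 and 7.05 in control livers. For Chrm3, Robo1 and Fam25c the 2 control livers of the low run were the highest of the 6.

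Adgrg2, an adhesion G protein-coupled receptor, averaged 4.20 ± 0.06 in JNK knockout livers and 5.10 ± 0.51 in control livers (SD, n = 3 each). Ceacam2, a cell adhesion molecule with a close paralog in Ceacam1, was at 5.22, 5.04 and 5.15 in JNK knockout livers, against 5.90, 5.87 and 6.19 in control livers, a difference of -0.85 ± 0.13 (SE; unadjusted limma p 0.000424). Syt12, a synaptotagmin, was at 4.26, 4.30 and 4.03 in JNK knockout livers, against 4.91, 5.16 and 5.02 in control livers. Fam83a was at 4.64, 4.79 and 4.48 in JNK knockout livers, against 5.56, 5.38 and 5.39 in control livers. In Ceacam2, Syt12 and Fam83a the livers of each group lay close together, with SDs of 0.09 to 0.15 in JNK knockout livers and 0.10 to 0.18 in control livers. Adam11, a disintegrin, and Atp9a, a putative phospholipid flippase, differed by -0.73 and -0.71, and Reln by -0.80.

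**Figure D3:**
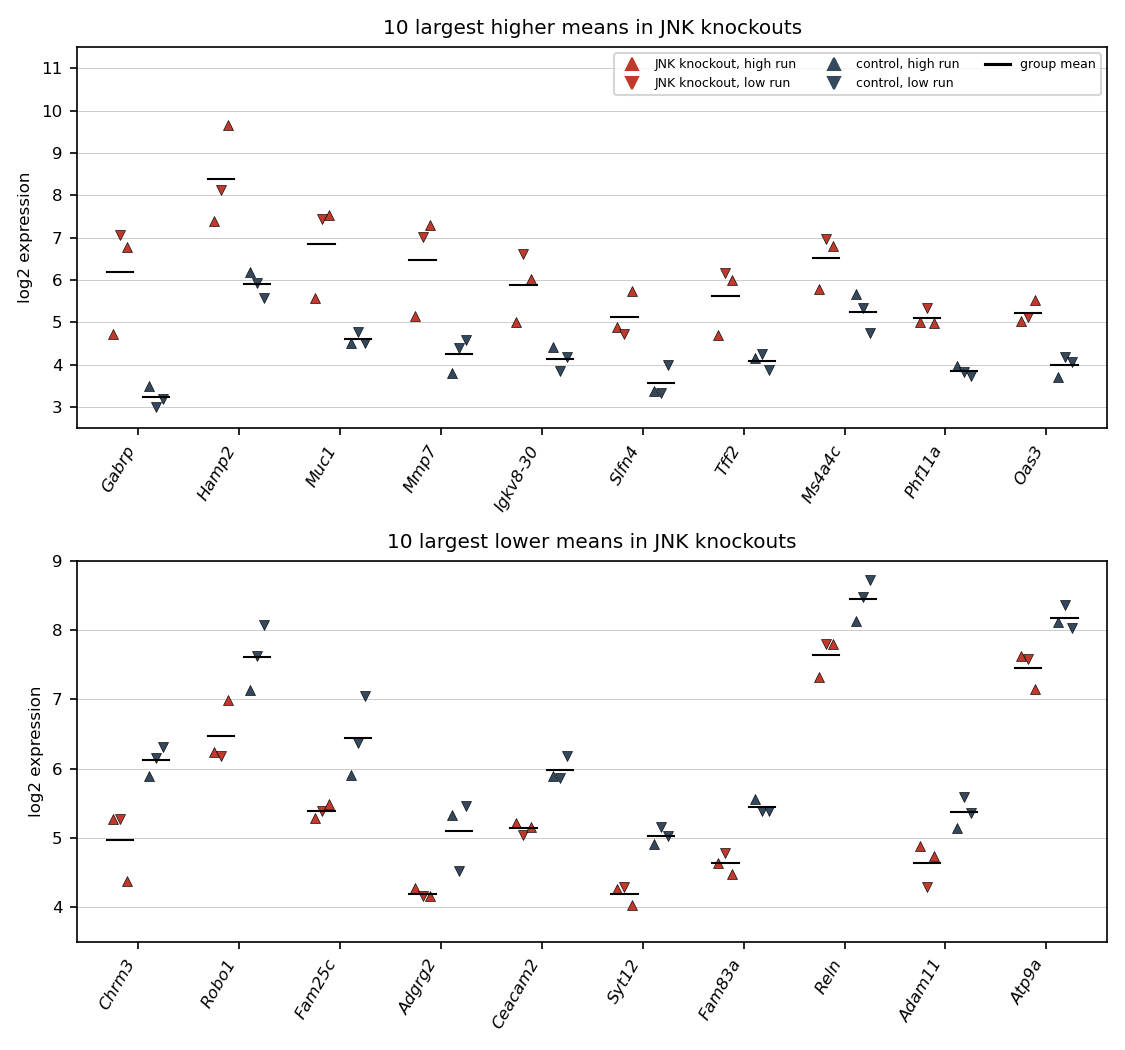
Log2 expression in each liver of the 10 genes with the largest higher and the 10 with the largest lower means within a selection. Selected genes had an unadjusted limma p under 0.01, no overlap and a mean of at least 5 in the higher group. JNK knockout livers are on the left of each pair, bars mark group means and the triangle direction gives the run of animal numbers. The groups do not overlap in any of the 20 genes, as the choice of genes requires, and the spread among JNK knockout livers is wide for Gabrp, Hamp2, Muc1 and Mmp7.

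Genes induced by interferons, the antiviral cytokines that act through STAT and IRF factors, were the list with the most members higher in JNK knockout livers. Of 23 measured members, 12 had an unadjusted limma p under 0.05 and were higher, against 1.45% of all genes, and 0 were lower. The same 12 did not overlap between groups. The median difference of the list was 0.70, against -0.02 over all genes. None of the 23 passed the adjusted threshold. This list and the others were chosen with earlier results of these data known, so their counts are descriptions and not independent support. The list's median relative to the control mean was 0.678, 0.42 and 0.833 in JNK knockout livers 1, 2 and 3, against 0.002, 0.137 and -0.172 in control livers 1, 2 and 3. The count was 12 without JNK knockout liver 3 and 16 without JNK knockout liver 2, and the list median was 0.9 without JNK knockout liver 2. The median was 0.43 within the low run and 0.82 within the high run. The list also leaned by run, with a median of low-run minus high-run livers of -0.55, against 0.007 over all genes. The high run holds JNK knockout livers 1 and 3 and control liver 1. With the run as a block the list median was 0.64 and the count 12. The part of the run in these differences was not tested.

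The promoters of 3 list members (Oas1a, Ifit1 and Ifit3) and of Oas3 and Phf11a are shown because each holds the letters of the interferon-stimulated response element, and genes without a match are not shown. Capitals mark matches to GAAANNGAAA or, for the other strand, TTTCNNTTTC. Each window is 300 bases from RefSeq on GRCm38.p6, written 5′ to 3′ along the gene from 250 bases before its start.
Oas1a, chr5:120907476-120907775, minus strand: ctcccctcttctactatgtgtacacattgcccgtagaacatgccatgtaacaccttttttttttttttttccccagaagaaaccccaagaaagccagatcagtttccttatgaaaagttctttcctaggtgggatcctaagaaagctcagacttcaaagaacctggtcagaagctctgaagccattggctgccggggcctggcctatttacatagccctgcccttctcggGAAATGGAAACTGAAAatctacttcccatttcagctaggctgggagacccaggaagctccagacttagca
Ifit1, chr19:34640639-34640938, plus strand: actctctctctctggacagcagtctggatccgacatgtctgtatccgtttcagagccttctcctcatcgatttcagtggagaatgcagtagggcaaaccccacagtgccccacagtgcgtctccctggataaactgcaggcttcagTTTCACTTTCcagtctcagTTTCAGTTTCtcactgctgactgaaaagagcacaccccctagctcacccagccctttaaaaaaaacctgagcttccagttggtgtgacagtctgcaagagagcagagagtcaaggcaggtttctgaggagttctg
Ifit3, chr19:34583279-34583578, plus strand: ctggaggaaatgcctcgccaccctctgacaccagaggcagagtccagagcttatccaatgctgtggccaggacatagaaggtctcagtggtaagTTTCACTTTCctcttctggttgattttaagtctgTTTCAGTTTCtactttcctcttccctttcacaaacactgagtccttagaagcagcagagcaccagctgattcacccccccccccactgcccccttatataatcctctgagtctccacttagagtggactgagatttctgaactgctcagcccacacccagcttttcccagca
Oas3, chr5:120777610-120777909, minus strand: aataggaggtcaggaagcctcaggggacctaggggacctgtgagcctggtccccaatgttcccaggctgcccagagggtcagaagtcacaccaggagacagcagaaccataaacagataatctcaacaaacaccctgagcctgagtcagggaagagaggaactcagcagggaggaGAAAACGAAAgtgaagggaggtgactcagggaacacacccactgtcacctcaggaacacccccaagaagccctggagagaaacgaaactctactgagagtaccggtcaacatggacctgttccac
Phf11a, chr14:59297473-59297772, minus strand: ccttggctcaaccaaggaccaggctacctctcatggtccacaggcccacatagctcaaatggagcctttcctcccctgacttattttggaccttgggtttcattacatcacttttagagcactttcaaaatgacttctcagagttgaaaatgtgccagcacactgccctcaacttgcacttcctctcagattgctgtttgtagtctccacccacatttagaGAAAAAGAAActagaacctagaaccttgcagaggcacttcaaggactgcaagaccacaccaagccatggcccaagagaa

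Matches started between positions -156 and -14 relative to the gene start, and those in Oas1a overlap each other. Of the 23 measured list members, 16 had a promoter window, and 8 of them (50%) held the pattern, against 3.91% of the 14749 measured genes with a window. Of the 12 members with an unadjusted p under 0.05, 8 had a window and 4 of these (50%) held it. A second pattern that was searched, TGANTCA, was held by 4 of the 16 (25%), against 7.92% of the 14749 measured genes. The list was made of interferon-inducible genes, so a high share of the first pattern is built into it. That share therefore does not bear on the JNK comparison. A match describes letters in the window and not a bound site.

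The OAS enzymes make the oligoadenylates that switch on RNase L. Oas1a was at 6.71, 6.68 and 6.65 in JNK knockout livers, against 5.99, 5.87 and 6.30 in control livers, a difference of 0.62 ± 0.14 (SE; unadjusted limma p 0.0032). Oas2 was at 6.06, 6.54 and 6.93 in JNK knockout livers, against 5.53, 5.12 and 5.48 in control livers. Oas3, which is not on the list, was at 5.02, 5.14 and 5.54 in JNK knockout livers, against 3.71, 4.20 and 4.07 in control livers. The 3 genes had higher values in every JNK knockout liver than in any control liver, and Oas1a hardly varied among JNK knockout livers. The related Oasl1 and Oasl2 were higher by 0.79 and 0.86.

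The IFIT proteins bind foreign RNA ends. Ifit1 was at 8.73, 7.72 and 7.94 in JNK knockout livers, against 7.24, 7.01 and 6.63 in control livers, a difference of 1.17 ± 0.29 (SE; unadjusted limma p 0.00501). Ifit3 was at 8.22, 7.75 and 8.54 in JNK knockout livers, against 7.18, 7.57 and 6.89 in control livers. Ifit2 was at 5.02, 5.47 and 5.99 in JNK knockout livers, against 4.62, 5.22 and 4.84 in control livers, with overlap between control liver 2 and JNK knockout liver 1. Among the regulators, Irf7, the transcription factor that amplifies interferon production, was at 9.71, 8.61 and 9.28 in JNK knockout livers, against 8.22, 8.38 and 8.13 in control livers. Usp18, which removes ISG15 and dampens the interferon receptor, was higher by 0.88, and Isg15 itself by 0.88. Mx1, a dynamin-like antiviral GTPase, was at 4.27, 4.80 and 4.80 in JNK knockout livers, against 3.74, 4.01 and 3.62 in control livers. Ifi27l2a and Xaf1 were higher by 0.88 and 0.70.

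JNK knockout liver 2 had smaller differences than its group mates in Isg15, Irf7 and Rsad2. Rsad2, the antiviral enzyme viperin, was at 8.20, 6.31 and 7.30 in JNK knockout livers, against 6.84, 6.39 and 6.90 in control livers. Irf1 (difference -0.02), Iigp1 (-0.16), Stat2 (0.13) and the immunoproteasome genes Psmb8 (0.32) and Psmb9 (0.14) had overlapping groups. Gbp2, a guanylate-binding protein known to respond to interferon gamma, was at 5.77, 6.58 and 6.77 in JNK knockout livers, against 5.95, 6.85 and 5.54 in control livers. After bile duct ligation the list's median JNK difference was 0.13, with 1 of 23 members, Oasl2, past the adjusted threshold, and none of the 23 had an interaction past the threshold.

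Phf11a, a PHD finger gene, had the smallest p of all genes. It was at 5.02, 5.33 and 5.0 in JNK knockout livers, against 3.98, 3.83 and 3.75 in control livers, a difference of 1.26 ± 0.14 (SE; unadjusted limma p 4.69e-05). The difference was 1.54 within the low run and 1.03 within the high run, and 1.07 after bile duct ligation (adjusted limma p 0.083). Trim30a, a tripartite motif gene induced by interferons, was at 7.90, 7.77 and 8.10 in JNK knockout livers, against 7.15, 7.11 and 7.03 in control livers, and was chosen here after its values were seen.

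**Figure D4:**
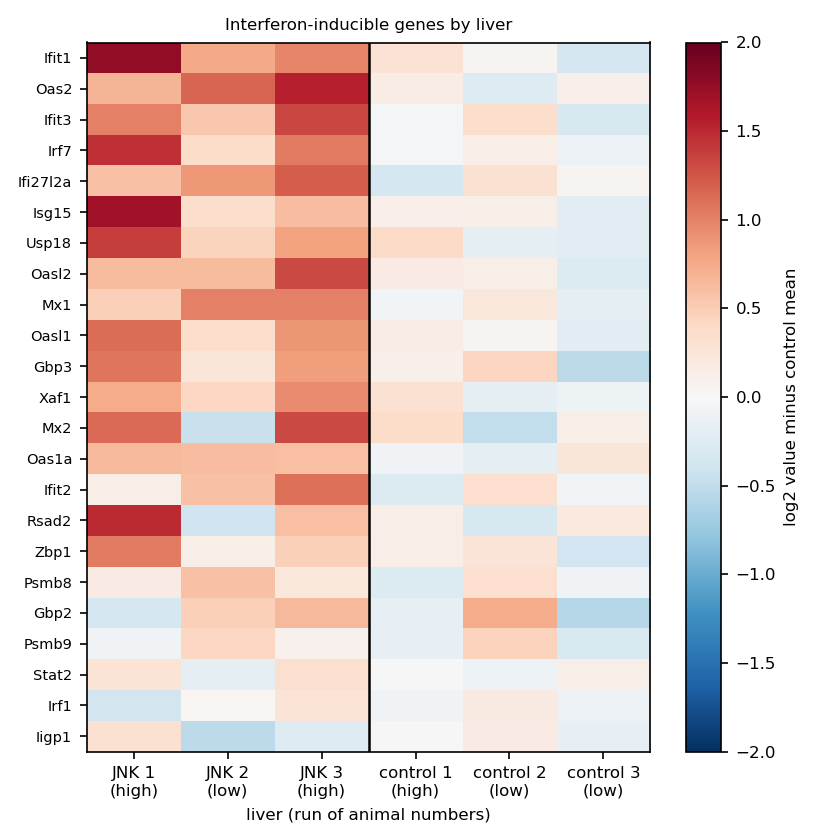
Interferon-inducible genes (rows, ordered by difference) in each liver (columns, JNK knockout livers on the left), coloured by log2 value minus the control mean. The 12 members whose groups do not overlap are above every control liver in all 3 JNK knockout livers, and JNK knockout liver 2 is paler in Isg15, Irf7 and Rsad2.

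Genes of bile duct epithelium and liver progenitors formed the other list with 5 or more members at an unadjusted p under 0.05. Of 18 measured members, 5 were higher (Muc1, Mmp7, Onecut1, Krt7 and Krt19) and 0 lower, against 1.45% and 2.7% of all genes. The groups did not overlap in 6 members, all higher, against 3.26% of all genes. Onecut1, the hepatocyte and biliary transcription factor HNF6, was at 8.63, 7.84 and 7.76 in JNK knockout livers, against 7.26, 7.02 and 7.06 in control livers. Krt7, a duct cytokeratin, was at 5.05, 6.83 and 6.03 in JNK knockout livers, against 4.32, 4.85 and 4.76 in control livers. Krt19, its partner in ducts, was at 5.23, 6.15 and 6.91 in JNK knockout livers, against 4.90, 4.62 and 5.05 in control livers. JNK knockout liver 1 was the highest for Onecut1 and the lowest of its group for Krt7 and Krt19.

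Epcam, a surface marker of ducts and progenitors, was at 4.26, 8.81 and 5.33 in JNK knockout livers, against 3.95, 3.93 and 4.41 in control livers. Its high mean rested on JNK knockout liver 2. Sox9, the duct transcription factor, was at 6.96, 7.95 and 6.43 in JNK knockout livers, against 5.95, 7.37 and 6.77 in control livers. The 4 cholangiocyte markers averaged 5.38, 7.44 and 6.17 in JNK knockout livers 1, 2 and 3, against 4.78, 5.19 and 5.25 in control livers, and their part in the differences of Gabrp, Muc1, Mmp7 and Tff2 was not tested. The count of 5 was 6 without JNK knockout liver 2, 5 without JNK knockout liver 3 and 11 without JNK knockout liver 1. With the run of animal numbers as a block it was 12. It was 14 within the low run, where JNK knockout liver 2 is the only knockout liver, and 0 within the high run, where control liver 1 is the only control.

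Of 27 members of the list of collagens, matrix and stellate cells, 4 were higher and 2 lower at an unadjusted p under 0.05, against 1.45% and 2.7% of all genes, and none passed the adjusted threshold. The mean was higher in JNK knockout livers for 23 of 27, against 8492 of all 18820 genes. Acta2, smooth muscle actin of activated stellate cells, was at 6.86, 7.77 and 7.26 in JNK knockout livers, against 6.54, 6.49 and 6.49 in control livers. Timp1, an inhibitor of matrix metalloproteinases, was at 4.71, 5.54 and 4.50 in JNK knockout livers, against 4.20, 3.87 and 3.95 in control livers. Eln and Lox, elastin and its crosslinking enzyme, were higher by 0.39 and 0.63. The fibrillar collagens overlapped, with Col1a1 at 5.86, 8.09 and 6.57 in JNK knockout livers, against 6.15, 6.31 and 6.01 in control livers. The count of 4 higher was 3 without JNK knockout liver 2 or 3, 13 without JNK knockout liver 1, and 2 without control liver 2 or 3. It was 12 with the run as a block, 20 within the low run and 0 within the high run, and the list median was 1.09 within the low run and 0.14 within the high run.

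The 2 lower members are markers of stellate cells that store retinoid. Reln, a secreted matrix glycoprotein, was at 7.33, 7.80 and 7.80 in JNK knockout livers, against 8.13, 8.47 and 8.72 in control livers. Lrat, which esterifies retinol, was at 7.61, 7.47 and 7.79 in JNK knockout livers, against 8.17, 8.08 and 7.99 in control livers. The count of 2 lower was 2 whichever liver was left out, 0 within the high run and 0 in the fit of all 24 arrays. The stellate cell markers, which are Lrat, Reln and Des, averaged 6.71 to 7.04 in JNK knockout livers and 7.2 to 7.28 in control livers. Des, the intermediate filament desmin, was at 5.20, 4.96 and 5.52 in JNK knockout livers, against 5.30, 5.15 and 5.14 in control livers, so the gap in that average came from Lrat and Reln.

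Of 17 genes of sinusoidal endothelium, 0 had an unadjusted p under 0.05, and the list median was -0.14. The list's average level was 7.699 to 7.865 in JNK knockout livers and 7.797 to 8.149 in control livers, with overlap. Stab2, a scavenger receptor, differed by -0.48 (interval -1.01 to 0.05). Lyve1, a hyaluronan receptor, differed by -0.70 (interval -1.46 to 0.05), and by 0.11 within the low run. Clec4g, a sinusoidal lectin, was at 9.81, 8.60 and 9.79 in JNK knockout livers, against 9.56, 9.56 and 9.97 in control livers. The groups overlapped for Stab2, Lyve1 and Clec4g. The average of these 3 markers did not overlap, at 8.23 to 8.46 in JNK knockout livers and 8.72 to 9.06 in control livers. Of the 17 list members, 15 had a lower mean in JNK knockout livers, against 10328 of all 18820 genes.

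The JNK cascade list had 22 measured members, of which 3 were lower and 0 higher at an unadjusted p under 0.05, against 2.7% and 1.45% of all genes. The groups did not overlap in 5 members, all lower, against 6.21% of all genes. Dusp8, a phosphatase that inactivates JNK and p38, was at 3.76, 4.14 and 4.02 in JNK knockout livers, against 4.69, 4.38 and 4.69 in control livers. Dusp16, another JNK phosphatase, was at 6.86, 6.88 and 7.05 in JNK knockout livers, against 7.11, 7.32 and 7.29 in control livers. Mapk8 was the remaining member. The count of 3 was 2 without JNK knockout liver 1 or 2 and without control liver 2 or 3, and 4 without JNK knockout liver 3. The upstream kinase Map2k4 was at 7.96, 7.68 and 7.73 in JNK knockout livers, against 7.85, 7.82 and 7.67 in control livers. Map3k5, the stress-activated kinase ASK1, averaged 7.52 ± 0.21 in JNK knockout livers and 7.83 ± 0.15 in control livers (SD, n = 3 each), and had an unadjusted p over 0.05. Map3k7, which encodes TAK1, averaged 7.78 ± 0.07 in JNK knockout livers and 8.01 ± 0.10 in control livers, also with an unadjusted p over 0.05.

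Targets downstream of JNK gave no member at an unadjusted p under 0.05 among 19 AP-1 and immediate early genes. Jun, which encodes the JNK substrate c-Jun, was at 6.06, 7.38 and 6.38 in JNK knockout livers, against 7.26, 6.95 and 7.31 in control livers. JNK knockout livers 1 and 3 lay below every control liver and JNK knockout liver 2 above them, so the difference was -1.04 within the high run and 0.25 within the low run. Fos was at 3.47, 4.68 and 4.82 in JNK knockout livers, against 4.0, 4.40 and 4.31 in control livers. Atf3, an AP-1 family stress gene, averaged 5.40 ± 0.62 in JNK knockout livers and 5.67 ± 0.45 in control livers (SD, n = 3 each).

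Genes that act on DEN and its damage hardly separated the genotypes. Cyp2e1, the main P450 that activates DEN, was at 12.80, 12.60 and 12.85 in JNK knockout livers, against 12.84, 12.60 and 12.58 in control livers. Mgmt, which removes alkyl groups from guanine, was at 7.15, 6.60 and 6.74 in JNK knockout livers, against 7.36, 6.82 and 6.61 in control livers. Of the 10 measured genes of nitrosamine activation and alkylation repair, 1 was lower at an unadjusted p under 0.05, against 2.7% of all genes. It was Alkbh2, a demethylase of alkylated bases, at 5.64, 5.82 and 5.65 in JNK knockout livers, against 6.08, 5.99 and 6.15 in control livers. The difference was -0.37 ± 0.12 (SE; unadjusted limma p 0.0157).

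Of 23 p53 targets, 1 was lower at an unadjusted p under 0.05 and 0 were higher, against 2.7% and 1.45% of all genes. Trp53inp1, a p53-induced stress protein, was at 8.42, 8.45 and 8.72 in JNK knockout livers, against 8.96, 8.69 and 9.09 in control livers. Cdkn1a, the cell cycle inhibitor p21, was at 7.56, 7.58 and 6.31 in JNK knockout livers, against 7.81, 6.83 and 7.56 in control livers. Mdm2 differed by -0.15 and Ccng1 by -0.05. By run of animal numbers 8 of the 23 p53 targets were higher and 4 lower in the low-run livers without overlap, against 8.85% and 10.4% of all genes. None of 16 DNA repair genes reached an unadjusted p under 0.05.

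Proliferation genes had higher means in JNK knockout livers, led by JNK knockout liver 2. All 16 mitosis genes had a higher mean, against 8492 of all 18820 genes, and 0 of 16 reached an unadjusted p under 0.05. Their median difference was 1.28 within the low run and 0.16 within the high run. Their average level was 4.5, 6.124 and 4.962 in JNK knockout livers 1, 2 and 3, against 4.568, 5.055 and 4.694 in control livers 1, 2 and 3. The average of JNK knockout liver 1 was below every control liver. Mki67, a nuclear protein of cycling cells, was at 5.24, 7.67 and 6.50 in JNK knockout livers, against 5.50, 6.32 and 6.37 in control livers. Of 18 DNA replication genes, 3 had an unadjusted p under 0.05 and were higher, against 1.45% of all genes. These were the helicase subunits Mcm3 and Mcm4, by 0.42 each, and thymidine kinase Tk1, by 0.54. The count was 0 without JNK knockout liver 2, without control liver 2 or without control liver 3. It was 1 without JNK knockout liver 3, 6 without JNK knockout liver 1, 13 within the low run and 0 within the high run.

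Cell death genes differed little. Of 17 genes of death receptors, caspases and necroptosis, 1 was higher at an unadjusted p under 0.05, against 1.45% of all genes. Birc2, the ubiquitin ligase cIAP1, was at 6.66, 7.04 and 6.58 in JNK knockout livers, against 6.47, 6.39 and 5.87 in control livers. None of 13 BCL2 family genes and none of 19 NF-kB genes reached an unadjusted p under 0.05. Bid, which links death receptors to mitochondria, averaged 6.55 ± 0.20 in JNK knockout livers and 6.87 ± 0.12 in control livers (SD, n = 3 each).

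Immune cell genes were uneven among JNK knockout livers. Of 13 B and plasma cell genes, 2 were higher at an unadjusted p under 0.05, against 1.45% of all genes. Ms4a1, the B cell antigen CD20, was at 4.88, 5.93 and 6.36 in JNK knockout livers, against 5.03, 4.41 and 4.52 in control livers. Cd79a, part of the B cell receptor, was at 5.06, 6.32 and 6.78 in JNK knockout livers, against 5.09, 4.73 and 5.27 in control livers. JNK knockout livers 2 and 3 lay above every control liver in both genes and JNK knockout liver 1 did not. The count was 0 without JNK knockout liver 2 or 3 and without control liver 2 or 3, and 10 without JNK knockout liver 1. It was 9 within the low run and 0 within the high run. The 2 B cell markers averaged 4.97, 6.12 and 6.57 in JNK knockout livers, against 5.06, 4.57 and 4.89 in control livers, and the 2 plasma cell markers 5.04, 6.78 and 6.92 in JNK knockout livers, against 6.18, 4.54 and 4.77 in control livers.

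Of 14 neutrophil genes, 2 were higher at an unadjusted p under 0.05, against 1.45% of all genes. Mmp9, a gelatinase stored in neutrophil granules, was at 4.64, 6.36 and 5.42 in JNK knockout livers, against 3.96, 4.24 and 4.66 in control livers. Csf3r, the G-CSF receptor, was at 5.57, 6.37 and 6.38 in JNK knockout livers, against 5.55, 5.31 and 5.48 in control livers. None of 22 macrophage genes, 18 T and NK cell genes, 20 chemokines or 7 MHC class II genes reached an unadjusted p under 0.05. For H2-Ab1, a chain of MHC class II, values were 8.15, 12.03 and 9.94 in JNK knockout livers, against 8.98, 9.83 and 8.74 in control livers, so that JNK knockout liver 2 was the highest of the 6 and JNK knockout liver 1 the lowest. The median difference of the MHC class II list was 2.77 within the low run and 0.13 within the high run. Lyz2, a lysozyme of macrophages, was at 9.41, 11.14 and 10.56 in JNK knockout livers, against 9.59, 9.81 and 9.74 in control livers.

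Lipid and sugar metabolism gave isolated differences. Of 25 genes of fatty acid and triglyceride synthesis, 2 were lower and 0 higher at an unadjusted p under 0.05. The shares of all genes were 2.7% lower and 1.45% higher. Plin4, a coat protein of lipid droplets, was at 5.68, 4.53 and 5.20 in JNK knockout livers, against 8.10, 5.90 and 7.19 in control livers, a difference of -1.93 ± 0.56 (SE; unadjusted limma p 0.0107). Pparg, the adipogenic nuclear receptor, was at 6.80, 6.29 and 6.80 in JNK knockout livers, against 7.42, 7.05 and 6.91 in control livers. Both genes were lower in each run, with a Plin4 difference of -2.01 in the low run and -2.66 in the high run. None of 26 genes of fatty acid oxidation and PPARalpha targets reached an unadjusted p under 0.05, whereas 19 of the 26 were lower in the low-run livers without overlap, against 10.4% of all genes.

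Fgf21, a hormone gene that PPARalpha induces, was at 7.79, 8.81 and 6.54 in JNK knockout livers, against 7.15, 6.57 and 5.29 in control livers, with overlapping groups. Of 17 cholesterol genes, 2 were higher at an unadjusted p under 0.05, against 1.45% of all genes. Hsd17b7, a late enzyme of the pathway, was at 9.19, 9.05 and 9.20 in JNK knockout livers, against 8.73, 8.94 and 8.60 in control livers. Pmvk, which encodes phosphomevalonate kinase, was higher by 0.31. Of 20 glucose genes, 2 were lower at an unadjusted p under 0.05, against 2.7% of all genes. Gys2, liver glycogen synthase, was at 9.35, 9.24 and 9.66 in JNK knockout livers, against 9.76, 9.81 and 10.01 in control livers, and Igfbp1, a secreted binder of insulin-like growth factors, was at 8.43, 10.16 and 8.97 in JNK knockout livers, against 9.74, 11.04 and 11.75 in control livers.

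None of 21 bile acid synthesis genes and none of 19 transporters reached an unadjusted p under 0.05. Cyp7a1, the rate-limiting enzyme of bile acid synthesis, was at 7.68, 8.32 and 10.05 in JNK knockout livers, against 9.11, 9.64 and 8.96 in control livers. Abcb4, the phospholipid exporter of bile, was at 9.66, 8.63 and 9.23 in JNK knockout livers, against 10.01, 9.80 and 9.58 in control livers. Only control liver 3 and JNK knockout liver 1 overlapped for Abcb4, and its unadjusted limma p was 0.0523.

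Other hepatocyte lists held few members at an unadjusted p under 0.05. Of 16 periportal hepatocyte genes, 2 were lower and 0 higher, and of 22 xenobiotic receptor targets, 1 was lower and 0 higher. The shares of all genes were 2.7% lower and 1.45% higher. Of 24 genes of NRF2 and glutathione, 20 had a lower mean in JNK knockout livers, against 10328 of all 18820 genes. At an unadjusted p under 0.05, 1 list member was lower, against 2.7% of all genes. Mgst3, a microsomal glutathione transferase, was at 6.72, 7.62 and 7.21 in JNK knockout livers, against 7.82, 8.07 and 7.82 in control livers. Nr1i2, the xenobiotic receptor PXR, was at 7.90, 7.19 and 8.16 in JNK knockout livers, against 8.48, 8.24 and 8.42 in control livers. Hsd17b13, a lipid droplet enzyme of hepatocytes, was at 11.10, 10.97 and 11.03 in JNK knockout livers, against 11.33, 11.47 and 11.61 in control livers, a difference of -0.43 ± 0.12 (SE; unadjusted limma p 0.00941). Mgst3, Nr1i2 and Hsd17b13 did not overlap between the genotypes.

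Of 22 genes of the endoplasmic reticulum stress response, 2 were higher at an unadjusted p under 0.05, against 1.45% of all genes. Sdf2l1, a chaperone partner of the endoplasmic reticulum, was at 8.64, 8.15 and 8.53 in JNK knockout livers, against 7.74, 7.97 and 7.91 in control livers. Creld2, a secreted disulfide isomerase-like protein of this response, was at 9.27, 8.47 and 9.20 in JNK knockout livers, against 8.26, 8.50 and 8.20 in control livers. JNK knockout liver 2 was the lowest of its group in both and overlapped the controls for Creld2. Id3, a BMP and TGF-beta target, was higher by 0.65 and Inhbb, an activin chain, differed by -0.67, each at an unadjusted p under 0.05. Tfrc, the transferrin receptor, was at 5.99, 6.18 and 5.35 in JNK knockout livers, against 6.03, 6.77 and 7.46 in control livers. Of 49 lists, 26 had no member at an unadjusted p under 0.05.

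Oncofetal and liver tumour genes followed the run of animal numbers. Of 20 measured members, 10 were higher in all low-run livers than in all high-run livers, against 8.85% of genes, and 0 were lower. Gpc3, the oncofetal proteoglycan glypican 3, was at 5.20, 10.19 and 3.62 in JNK knockout livers, against 6.14, 9.22 and 10.59 in control livers. Afp, alpha-fetoprotein, was at 3.83, 7.62 and 3.77 in JNK knockout livers, against 4.09, 6.23 and 7.54 in control livers. Spink1, a trypsin inhibitor found in liver tumours, was at 3.19, 9.30 and 2.96 in JNK knockout livers, against 4.04, 8.16 and 5.63 in control livers. In all 3 genes JNK knockout liver 2 lay with control livers 2 and 3, and JNK knockout livers 1 and 3 lay with control liver 1.

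Akr1c18, an aldo-keto reductase on the same list, was at 7.03, 10.05 and 3.40 in JNK knockout livers, against 8.37, 11.19 and 11.37 in control livers. Each JNK knockout liver lay below every control liver of its own run, JNK knockout liver 3 being the lowest of the 6, and the unadjusted limma p over the 6 livers was 0.0714. Cpe, carboxypeptidase E, was at 3.11, 5.37 and 2.91 in JNK knockout livers, against 4.29, 8.20 and 8.54 in control livers. By genotype, 1 oncofetal gene was lower at an unadjusted p under 0.05, against 2.7% of all genes. Dlk1, a fetal transmembrane protein, was at 4.25, 4.11 and 4.19 in JNK knockout livers, against 4.51, 4.72 and 4.51 in control livers.

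Trim12a and Trim30d, tripartite motif genes, ran opposite to the oncofetal genes. Trim12a was at 6.59, 2.90 and 5.97 in JNK knockout livers, against 5.89, 3.11 and 2.95 in control livers. Trim30d was at 6.75, 3.99 and 6.00 in JNK knockout livers, against 5.72, 3.79 and 3.57 in control livers. For both, the 3 high-run livers lay well above the 3 low-run livers whatever the genotype.

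**Figure D5:**
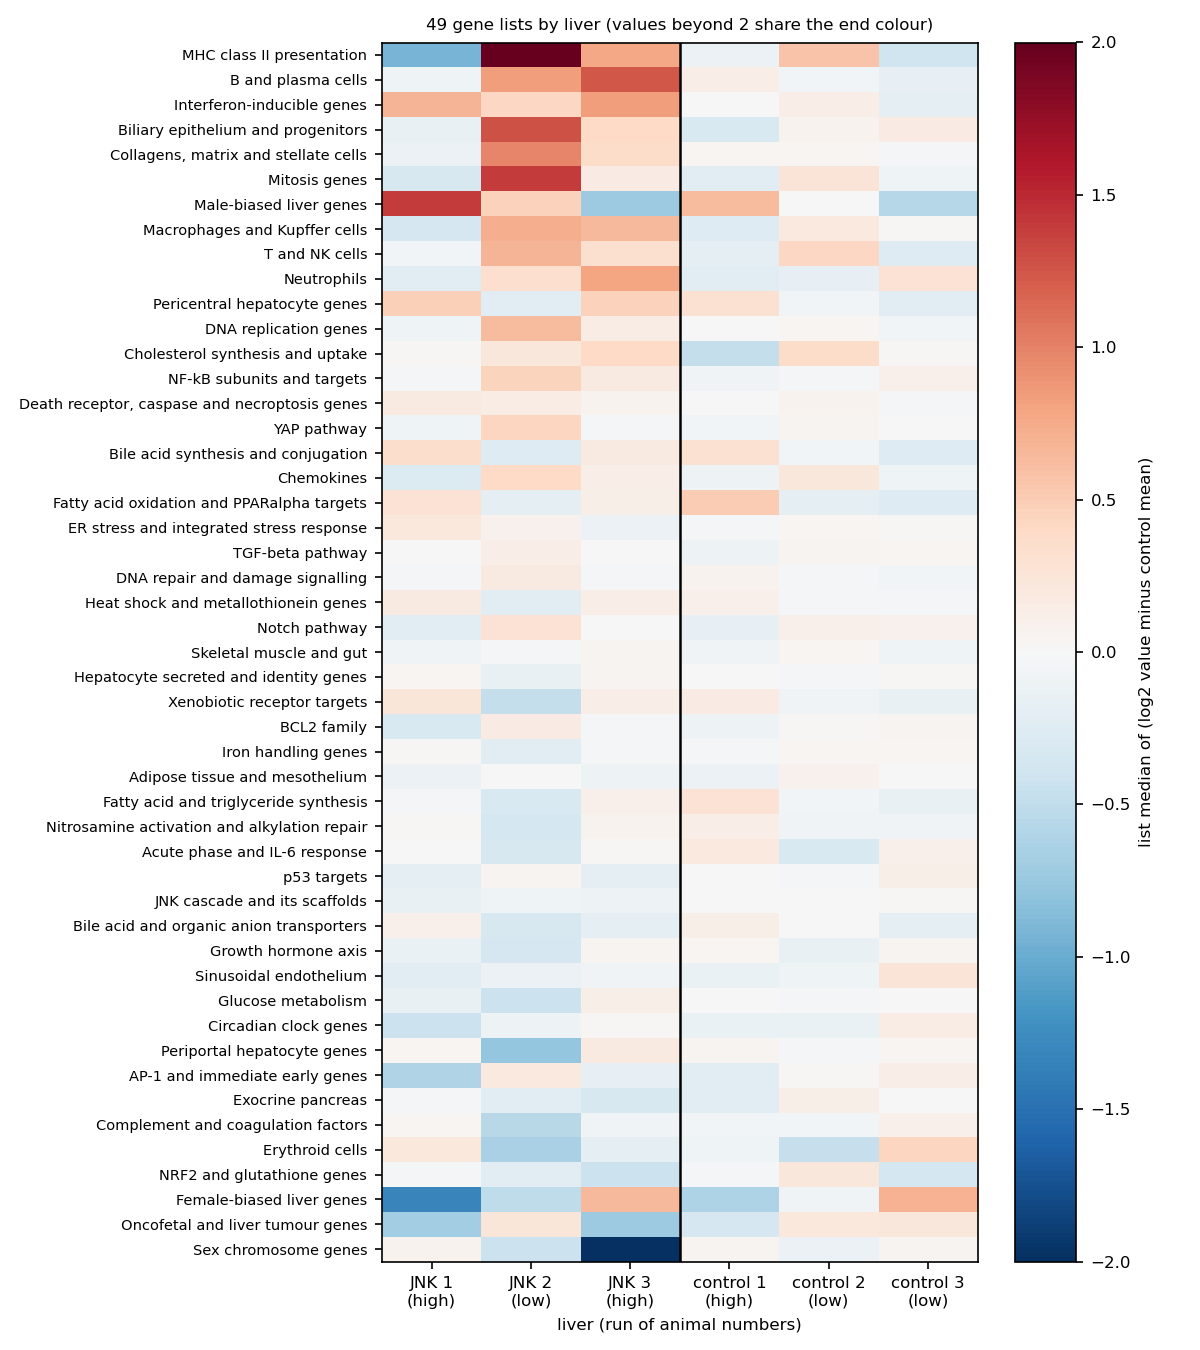
Median of each of 49 gene lists (rows, ordered by the mean over JNK knockout livers) in each liver (columns, JNK knockout livers on the left), as log2 value minus the control mean, with the run of animal numbers in brackets. Interferon-inducible genes are red in all 3 JNK knockout livers, while MHC class II, mitosis, biliary and matrix lists are darkest in JNK knockout liver 2.

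Each liver had genes of its own. JNK knockout liver 2 was furthest above its mates, after Spink1 and Gpc3, for Ccl17, a chemokine of dendritic cells, at 9.80, against 3.58 and 4.84 in JNK knockout livers 1 and 3 and 3.27 to 3.32 in control livers. Mgl2, a lectin of macrophages and dendritic cells, was at 8.49 in it, against 3.10 and 3.79 in its mates and 2.93 to 3.30 in control livers. JNK knockout liver 1 was furthest below its mates for Igkc, the kappa constant region, at 5.47, against 8.64 and 8.70 in JNK knockout livers 2 and 3. Control liver 1 had Cidea, a lipid droplet protein, at 8.35, against 4.43 and 4.24 in control livers 2 and 3 and 3.37 to 5.08 in JNK knockout livers. Control liver 2 had Slc7a11, a cystine carrier that NRF2 induces, at 8.19, against 3.91 and 4.74 in control livers 1 and 3.

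Set against the JNK knockout effect after bile duct ligation, 9 genes differed between the experiments at an adjusted limma p under 0.05 for the interaction term, 5 with a higher difference after DEN (0.0266%) and 4 with a lower one (0.0213%). The experiments share no livers. For 8 of the 9 the JNK difference after DEN had an unadjusted p over 0.05, while all 9 had an adjusted p under 0.05 after ligation. Chrm3 was the other one. Its JNK difference was -1.14 after DEN and 1.26 after ligation, where it was at 4.94, 5.13 and 5.15 in JNK knockout livers, against 3.92, 3.86 and 3.64 in control livers, and the interaction was -2.41 (adjusted limma p 0.021). Slc2a2, the hepatocyte glucose transporter GLUT2, was at 10.52, 10.44 and 10.85 in JNK knockout livers after DEN, against 10.90, 10.86 and 10.81 in control livers, and its interaction was 1.18 (adjusted limma p 0.035). Under the alternatives tried, the interaction passed the threshold in 7 of 10 for Chrm3 and in 6 of 11 for Slc2a2.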

How the data were processed

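Total RNA of whole liver was hybridised to an Affymetrix mouse whole-transcript array, 1 array per liver. The deposited values were log2 expression. Per the submitters' processing notes, RMA produced them for each probe set, with no version stated. RMA subtracts background, equalises array distributions and summarises probes, so a difference in total RNA between livers is removed. Array medians were 4.52 to 4.66, and precision is limited by having 3 arrays in a group. Of 35556 probe sets, 21218 had 1 gene symbol in the platform annotation, 1881 had several and 12457 had none, and the brightest probe set over 24 arrays stood for each of 18820 genes. The JNK knockout and control livers after DEN were set against each other on these 6 arrays by limma (version 3.58.1, R 4.3.3), with empirical Bayes variances and Benjamini-Hochberg adjustment over all 18820 genes, and the method was tested on simulated data. The interaction between experiments was fitted over 12 arrays. An exact permutation test of 3 against 3 livers cannot give a p below 0.1.

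The genes and lists were chosen with earlier results of these data known. Genes were named by target, by size of difference, as the 3 members of each list with the smallest p, and as the 5 genes that set each liver furthest above or below its mates. Other list members were named after their values were seen. Same-numbered JNK knockout and control livers had deviations from their group means that correlated at 0.359, 0.301 and 0.045. Differently numbered livers correlated at -0.365 to 0.163. The main fit did not take the numbers as pairs, and a block for the replicate number was tried as an alternative. Alternatives were another set of arrays, centring, quantile normalisation, a filter on dim genes, averaged probe sets, array weights, a variance trend, the replicate and run blocks, and leaving out each liver.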

Additional observations from a re-analysis of the deposited data

Results flagged for a closer look

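In 9 genes the JNK knockout difference after DEN differed from that after bile duct ligation, by the interaction term of limma over 12 arrays with an adjusted p under 0.05. The interaction is the difference after DEN minus the difference after ligation. It was positive for Abhd1 (3.15), Catspere2 (2.14), Mybl1 (1.64), Gpd1l (1.35) and Slc2a2 (1.18), all of which were lower in JNK knockout livers than in control livers after ligation. It was negative for Efna3 (-3.64), A2m (-3.60), Mmrn1 (-3.08) and Chrm3 (-2.41), all of which were higher in JNK knockout livers after ligation. Efna3, a ligand of Eph receptors, was at 8.38, 8.10 and 8.65 in JNK knockout livers after ligation, against 4.73, 4.68 and 4.79 in control livers. Abhd1, an abhydrolase domain gene, was at 5.75, 5.79 and 5.67 in JNK knockout livers after ligation, against 8.49, 9.17 and 8.91 in control livers. Abhd1 and Efna3 passed the threshold in 11 of 11 alternatives each, Gpd1l in 10 of 11 and Mybl1 in 9 of 10. Catspere2 and Chrm3 passed it in 7 of 10 each, Slc2a2 in 6 of 11, A2m in 4 of 11 and Mmrn1 in 4 of 10.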

How the results depend on the processing

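The arrays show differences only where they exceed the spread of 3 livers a group, and genes near the lower end of each array's values have compressed differences. No gene passed the adjusted threshold in either direction under the alternatives named in the methods, except that leaving out 1 liver gave 0 to 2 higher genes, and 0 to 1 higher list members (Muc1 without JNK knockout liver 1). Of 3 settings added after seeing the data, the run block without JNK knockout liver 3 gave 0 higher and 0 lower genes, an interferon median of 0.58 and 12 interferon members at an unadjusted p under 0.05. The high-run livers alone gave 0 higher and 0 lower genes, a median of 0.82 and 9 members. The low-run livers alone (1 JNK knockout and 2 control livers, the lone liver assumed to vary like the controls) gave 615 higher and 59 lower genes, with 69 and 17 list members, an interferon median of 0.43 and 7 interferon members at an unadjusted p under 0.05. Genes without overlap, 614 higher and 1168 lower, were 341 higher with centred arrays, and 369 higher and 384 lower without dim genes. Leaving out 1 liver, where fewer livers must separate, gave 1195 to 1997 higher and 1938 to 2625 lower, an interferon median of 0.61 to 0.9, and 2 to 7 positive and 1 to 19 negative interactions. Interactions were 3 positive and 1 negative without dim genes and 3 positive with the replicate number as a block, a block that brought 0 genes past the adjusted threshold after DEN. Genes at an unadjusted p under 0.05, 272 higher and 509 lower, were 513 higher with all 24 arrays, 528 and 778 with 12 arrays, 148 and 162 without dim genes, 953 and 1278 with array weights, 482 higher with the replicate block, 890 higher with the run block and 1007 higher without JNK knockout liver 1. Of 79 gene results, 4 changed sign: Mapk9 (-0.21 to 0.04 without 1 liver, the highest without control liver 2, and 0.23 in the high run), Ikbkg (-0.35 to 0.01 without 1 liver, the highest without control liver 1), Lyve1 (0.11 in the low run) and Jun (0.25 in the low run). The cause was not tested.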

Other observations

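Probe sets without a single gene symbol were tested apart from the named genes. Of 14338, 0 passed an adjusted limma p under 0.05 between JNK knockout and control livers, and 360 were higher and 357 lower at an unadjusted p under 0.05.

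Immunoglobulin genes varied within both genotypes. Igkc, the kappa constant region, was at 5.47, 8.64 and 8.70 in JNK knockout livers, against 7.59, 5.47 and 5.88 in control livers, and Igha, the heavy chain of IgA, at 5.90, 8.33 and 8.39 in JNK knockout livers, against 8.48, 4.80 and 5.39 in control livers. JNK knockout livers 2 and 3 and control liver 1 were the high livers for both, a split that matches neither the genotype nor the run of animal numbers. Elovl3, an elongase of very long fatty acids, was at 11.69, 9.46 and 6.25 in JNK knockout livers, against 10.85, 7.81 and 5.48 in control livers.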
